A study of Mus musculus with 102 samples.

Results

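Between 14 and 20 months of age, the complement gene C4b rose in the brain of male mice, and it was the 1 gene of 15566 that passed the test (0.00642%). The comparison used RNA sequencing of brain from 9 mice aged 14 months and 7 aged 20 months, 16 of the 45 brain libraries and of the 102 samples in the series. All 16 were male C57BL/6J animals labelled WT, and the labels name no treatment and no brain region. The series set out to follow ageing phenotypes over the lifetime, and brain was also sequenced at 3, 5, 8 and 26 months. A spleen of each of these animals was sequenced too, matched by a code that the brain and spleen titles share. The genes tested were the 15566 of 51810 listed that had a normalized read count of 10 or more in at least 5 brain libraries. The sample titles also carry a code beginning with ET, which some libraries share within and across the ages. The labels do not explain it and it entered no test. The labels name no cages, litters or preparation days, so p-values measure the spread between these animals.

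Ageing brain is known for low-grade activation of its glial cells. Microglia, the resident macrophages, take up debris and carry receptors for complement, a cascade of secreted proteins that tag surfaces for removal. Astrocytes supply neurons with metabolites and, when reactive, switch on secreted inflammatory proteins, while oligodendrocytes wrap axons in myelin. C4 is the protein that is cleaved after C1q binds and that then marks the surface next to it. The mouse carries C4b beside a near copy, C4a, which encodes the sex-limited protein, so the letters that separate them decide where a read can be told apart. Over 5357 aligned bases the C4b and C4a transcripts were 96.15% identical, with 206 differing bases, and 36.2% of windows of 50 bases held no difference. Stretches of 60 bases were searched that are coding in C4b, lie within a single exon of each gene and align without gaps. The one with the most differences lies in exon 21 of both genes and holds 13, written below in capitals. It is given 5′ to 3′ along the transcripts, which run on the minus strand of chromosome 17 (GRCm38, GENCODE M21). The C4b stretch is at chr17:34735430-34735489 and the C4a stretch at chr17:34816086-34816145.
C4b: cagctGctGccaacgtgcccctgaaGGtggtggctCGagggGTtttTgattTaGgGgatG
C4a: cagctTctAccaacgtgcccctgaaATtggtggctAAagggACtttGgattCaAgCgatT
How the deposited counts treated reads that fall on stretches without a difference is not given in the sources used here. C4a itself was low, at 3.60 ± 1.83 normalized reads (SD, n = 9) at 14 months and 5.14 ± 2.84 (SD, n = 7) at 20 months, and did not reach the filter.

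Reads in genes ran from 4072076 to 11599769 per library at 14 months (median 8144954) and from 6118328 to 9682731 at 20 months (median 9040942). Replicate numbers are not in the labels and were given here in the order of the samples within each age. The shallowest library, replicate 1 at 14 months, also had the lowest median correlation with the other 15 libraries over genes (Pearson r 0.967, against up to 0.985). Markers of neurons, astrocytes, oligodendrocytes and endothelial cells were present in every library, and P2ry12, 1 of the 3 microglia markers, was listed at 0 throughout. Summed markers of pituitary (Gh, Prl and Cga) were 8.70 to 4009 at 14 months and 12.4 to 877 at 20 months, and 3 libraries passed 500: replicate 9 at 14 months and replicates 2 and 7 at 20 months. Summed markers of choroid plexus (Ttr, Kl and Folr1), the epithelium that makes cerebrospinal fluid, were 993 to 3429 at 14 months and 1172 to 7779 at 20 months, with medians of 1779 and 2968. Named genes that leaving out these 3 libraries, or a choroid plexus covariate, moved by over 1.5 times are given below with both values. Brain tissue holds many cell types, and in bulk samples more cells of a type and more RNA per cell cannot be told apart.

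C4b (chr17:34728380-34743882, minus strand) had normalized read counts of 86.9 at the lowest, 130.3 at the median and 231 at the highest of the 9 libraries at 14 months, from 70 to 242 reads. At 20 months the lowest, median and highest of 7 were 214, 288 and 393, from 207 to 531 reads. All 7 animals of 20 months lay above the median of 14 months and 5 lay above its highest library, which was the shallow replicate 1. The means were 136 ± 46.1 (SD, n = 9) and 294 ± 64.7 (SD, n = 7). On the log2(value + 1) scale, on which all differences below are given as 20 minus 14 months, C4b rose by 1.15 (SE 0.188, 95% interval 0.77 to 1.52). Its Benjamini-Hochberg adjusted p over all genes was 0.00269 in limma, a linear model of all 6 ages. With the choroid plexus marker sum as a covariate the difference was 1.01 (adjusted p 0.0303), and without the 3 libraries with pituitary markers it was 1.17 (adjusted p 0.0229).

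Across the ages sequenced, mean C4b was 69.2 at 3 months, 82.0 at 5, 112 at 8, 136 at 14, 294 at 20 and 519.8 ± 178 (SD, n = 5) at 26 months. The 6-month step from 14 to 20 months minus the step from 8 to 14 was 0.86 (SE 0.32, adjusted p 1.00). The step from 20 to 26 months differed from it by -0.36 (SE 0.35, adjusted p 1.00). Neither difference between steps passed the test, so the rise between 14 and 20 months was not shown to be faster or slower than its neighbours. In the spleens of the same 16 animals C4b was 736 ± 313 at 14 months and 882 ± 484 at 20 months, a difference of 0.13 (SE 0.33, adjusted p 0.934). The brain and spleen tables were normalized separately, so the tissues were not tested against each other.

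**Figure D1:**
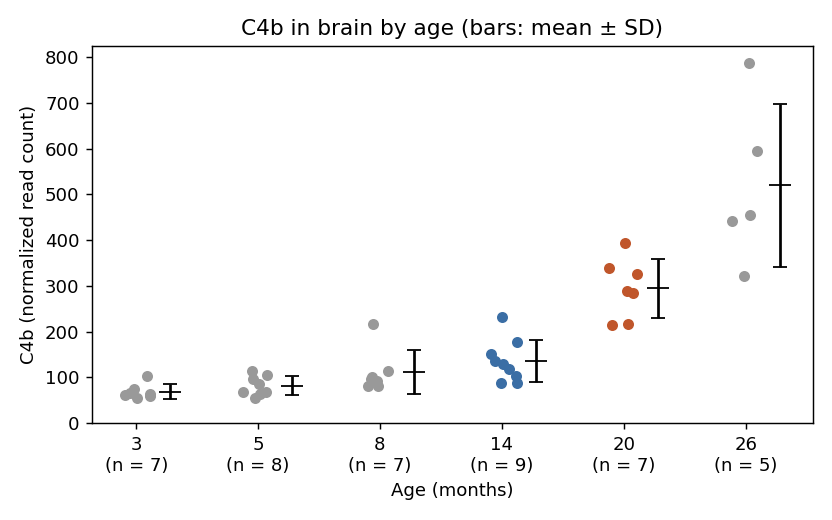
C4b normalized read count (y axis) in each brain sample at 6 ages in months (x axis), with mean and SD as bars. The 7 animals at 20 months (orange) lie between 214 and 393, and 8 of the 9 at 14 months (blue) lie below them.

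C4b was the 1 gene that limma called at an adjusted p under 0.05. On whole reads recovered from the deposited values, edgeR called 2 genes, C4b and Etnppl (0.0128% of genes), and DESeq2 called 3, with Rbm3 added (0.0193%). Each of these was higher at 20 months. Without adjustment, 647 genes had p under 0.05 in limma (4.16%), 376 of them higher (2.42%) and the others lower (1.74%). The median difference over all genes was 0.0051, and 51.8% of genes lay above 0. Only 3 genes had groups that did not overlap. Of these, 1 was higher at 20 months (0.00642% of genes), Aspa, which encodes the enzyme that breaks down N-acetylaspartate in oligodendrocytes. The other 2 were lower (0.0128%), the zinc finger gene Zfp444 and the homeobox gene Irx3, the last named after its values were seen. Zfp444 had 185, 194 and 230.4 at 14 months and 151, 171 and 183 at 20 months (lowest, median, highest), and Irx3 had means of 19.5 and 10.2. Neither was called by any of the 3 tools, with adjusted p 1.00 for both in limma.

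Etnppl, an enzyme of astrocytes that degrades phosphoethanolamine, came next in limma. Its lowest, median and highest counts were 332, 396 and 528 at 14 months and 433, 556 and 881 at 20 months. Of the 7 libraries at 20 months 5 exceeded every library at 14 months, and the highest was replicate 7. The means were 401 ± 71.9 (n = 9) and 604 ± 156 (n = 7), a difference of 0.57 (SE 0.117) with adjusted p 0.0843 in limma, 0.0340 in edgeR and 0.00668 in DESeq2. It was therefore called by 2 of the 3 tools. Rbm3, an RNA-binding protein induced by cold, had 189, 232 and 290.1 at 14 months and 284, 339.6 and 405 at 20 months (lowest, median, highest), and again 5 of 7 lay above the highest at 14 months. Its difference was 0.46 (SE 0.097), with adjusted p 0.0992 in limma, 0.0822 in edgeR and 0.0244 in DESeq2. At 26 months mean Etnppl was 451 and mean Rbm3 265, against 604 and 329 at 20 months. The step from 20 to 26 months differed from the step before it by -0.96 for Etnppl and -0.77 for Rbm3, each with adjusted p 0.664, so a turn after 20 months was not shown. Without the 3 libraries with pituitary markers the differences between 14 and 20 months were 0.44 for Etnppl and 0.39 for Rbm3. In spleen Rbm3 was 2100.0 ± 429 at 14 months and 3209 ± 633 at 20 months, a difference of 0.61 with adjusted p 0.334.

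The remaining genes with higher values, in order of p, did not pass the test in any of the 3 tools. Only genes with a mean of 50 or more in the higher group were ranked here. Predicted genes, pseudogenes, receptor segments and Y-linked genes were left out. A2m (adjusted p 0.691) and Lyz2 (0.723) had lower means, were not ranked and are given below. Neat1, the nuclear non-coding RNA that builds paraspeckles, had 1216, 1491 and 1954 at 14 months and 1678, 1993 and 2129 at 20 months (lowest, median, highest), with 6 of 7 above every library of 14 months. Its difference was 0.40 and its adjusted p 0.252 in limma. Apod, a lipid-carrying secreted protein of glia, had 657, 858 and 1084 at 14 months and 1033, 1168 and 1491 at 20 months, also with 6 of 7 above. Its difference was 0.49, adjusted p 0.520. The ceramidase Acer2 (0.58) and Hapln2 (0.48), a link protein at nodes of Ranvier, followed with adjusted p 0.691 each. Next stood Fzd4 (0.57), a receptor for Norrin and Wnt ligands, the chemokine Cxcl12 (0.36), the annexin Anxa3 (0.43), the calcification inhibitor Mgp (0.57) and the Mediator subunit Med8 (0.38), with adjusted p from 0.695 to 0.939.

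Among the genes with lower values ranked by the same rule, the smallest p belonged to Hsph1, a cytosolic chaperone of the heat shock family. It had 2955, 3372 and 4201 at 14 months and 2352, 2740.4 and 3265 at 20 months (lowest, median, highest), and all 7 libraries of 20 months lay below the median of 14 months. The difference was -0.29 (SE 0.074), adjusted p 0.520. Fabp7, a fatty-acid-binding protein of radial glia and astrocytes, showed the widest gap of these genes, from 227 ± 72.1 to 142 ± 57.2, a difference of -0.74 with adjusted p 0.725. Its lowest library at 20 months was replicate 7 with 49.0, and the difference without it was -0.50. Arntl, the clock activator also called Bmal1, stood at 548 ± 59.7 and 458 ± 62.9, a difference of -0.26 with adjusted p 0.954. Arntl stood at -0.15 and Fabp7 at -0.48 without the 3 libraries with pituitary markers. Uba6 (-0.28), a ubiquitin-activating enzyme, Tubd1 (-0.40), delta-tubulin, Ttc26 (-0.31), an intraflagellar transport protein, and Timm22 (-0.30), a mitochondrial import channel, were of like size. So were the adhesion molecule Clmp (-0.32), the endoplasmic reticulum chaperone Calr (-0.35), the mitochondrial tRNA synthetase Ears2 (-0.38), Zfp444 (-0.23) and the diacylglycerol kinase Dgkb (-0.23). Adjusted p was 0.939 or above for these 9.

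**Figure D2:**
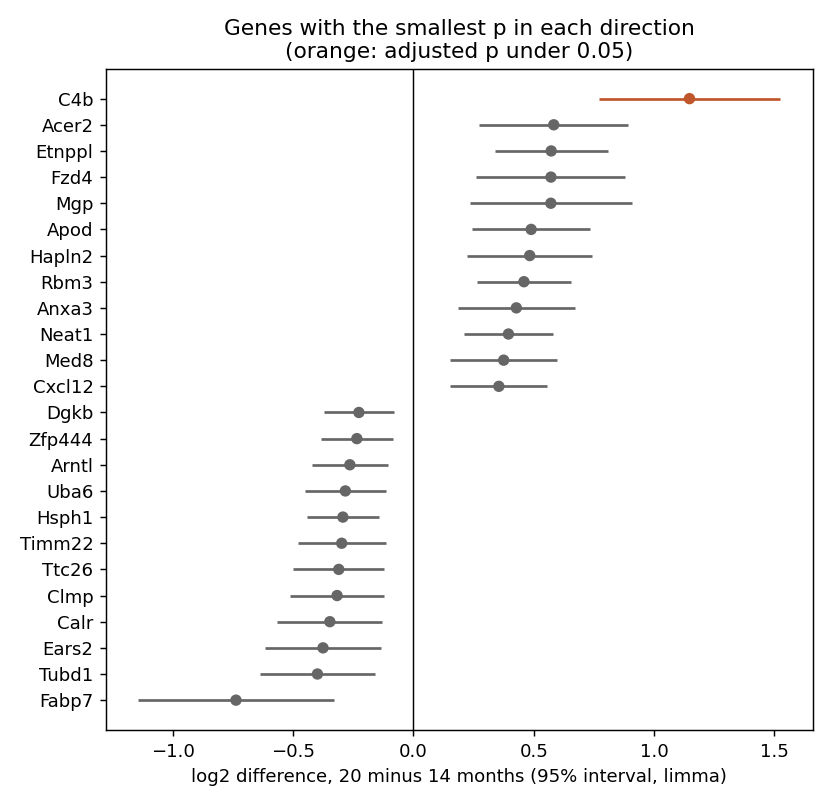
Difference between 20 and 14 months (x axis, log2) with its 95% interval from limma for 12 genes in each direction (y axis). They are those of smallest p under the naming rule, with a mean of 50 or more in the higher group. C4b at 1.15 is the single gene with an adjusted p under 0.05, and the others shown lie between -0.74 and 0.58.

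**Figure D3:**
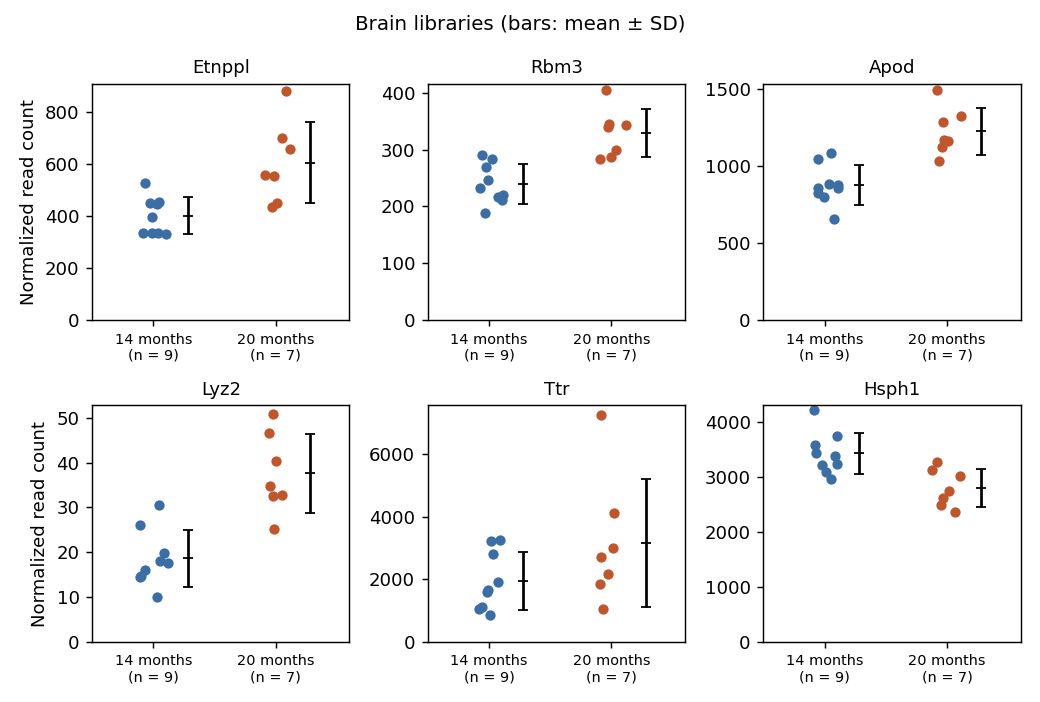
Normalized read counts (y axes) of 6 genes in each brain library at 14 months (blue, n = 9) and 20 months (orange, n = 7), with mean and SD as bars. For Etnppl, Rbm3, Apod and Lyz2 at least 5 of the 7 libraries of 20 months lie above every library of 14 months, Hsph1 lies lower, and Ttr ranges from 1037 to 7241 at 20 months.

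A further set was called on animals that are in neither group, among genes that passed a filter counting libraries of every age. At 26 against 3 months limma called 103 genes (0.662%), 89 higher and 14 lower at 26 months. Of the 89, 85 also had a difference above 0 between 14 and 20 months (95.5%, against 51.8% of all genes), and their median was 0.32 against 0.0051. Without adjustment 38 of them had p under 0.05 and higher values (against 2.42% of all genes), and 0 had p under 0.05 and lower values. After adjustment over all genes C4b alone passed, and no gene of the 89 had groups that did not overlap. Clec7a, Itgax and Oas1a, members of the 89, met the filter on low values only through samples of 20 and 26 months. The same held for 224 of all 15566 genes. How many other members of the 89 it held for was not counted, so the counts above are not independent of age. Without the 3 libraries with pituitary markers 85 of the 89 lay above 0, and 83 did with the choroid plexus covariate. Between 8 and 14 months, a comparison that shares the animals of 14 months, 71 of the 89 lay above 0, with a median of 0.078. Of the 14 genes lower at 26 months 9 lay below 0 between 14 and 20 months, with a median of -0.05. These animals share the model's estimate of spread with the comparison, and counts over genes that vary together are a description.

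**Figure D4:**
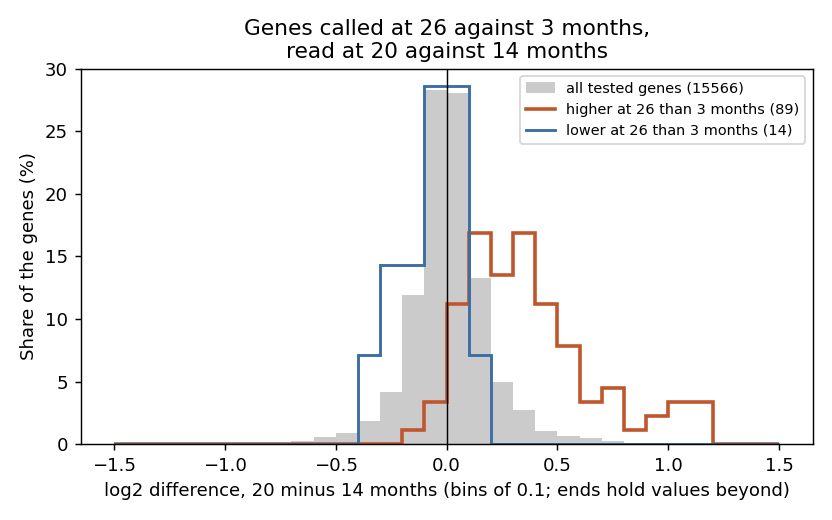
Share of genes in percent (y axis) by their difference between 20 and 14 months (x axis, log2, bins of 0.1), for all 15566 genes, the 89 called higher and the 14 called lower at 26 against 3 months. The 89 centre on 0.32 and the 14 on -0.05, while all genes centre on 0.0051.

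Within that set the 8 genes of largest change at 26 months among those with a mean of 50 or more, all but C4b without a call here, had these levels. A2m, a secreted protease inhibitor of reactive glia, had 13.2, 23.5 and 43.4 at 14 months and 22.2, 43.5 and 87.0 at 20 months (lowest, median, highest). Its difference was 0.94, adjusted p 0.691, with 4 of 7 above every library of 14 months. Lyz2, the lysozyme of macrophages, had 10.1, 17.7 and 30.6 at 14 months and 25.2, 34.8 and 50.7 at 20 months, a difference of 1.01 with adjusted p 0.723, and 6 of 7 lay above. Gpnmb (0.41), a lysosomal glycoprotein of foamy microglia, Lag3 (0.42), an immune checkpoint receptor, Ptprc (0.32), the leukocyte antigen CD45, and Serpina3n (0.34), a serine protease inhibitor of reactive astrocytes, had smaller differences. Without replicate 6 of 14 months Lag3 stood at 0.23. Serpina3n stood at 0.15 with the choroid plexus covariate and at 0.14 without the 3 libraries with pituitary markers. Serpina3n stood at 87.2 at 20 months and 209.9 at 26 months. The activity-induced gene Arc, the single one of the 8 that was lower at 26 than at 3 months, differed by 0.04 here, by 0.09 with the covariate and by 0.11 without those 3 libraries.

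The members were also read by function in 19 lists of marker and pathway genes, given as counts and medians. They are to be read against the shares of all genes given above for differences over 0 and for unadjusted p. Genes of a list vary together and the lists were not tested as sets. Of the 15 complement genes measured of 18 listed, 13 lay above 0, C4b was called, and the median was 0.26. Itgb2 (0.51), the shared chain of the microglial complement receptors, and C1qb (0.30), a chain of the C1q recognition molecule, had unadjusted p under 0.05, and C3ar1 (0.42), the receptor of a C3 fragment, did not. C1qb had 103, 123 and 165 at 14 months and 109, 160.5 and 187 at 20 months, so the groups overlapped over most of their range. C1qb stood at 0.19 with the choroid plexus covariate, and 1 of the 15 then had unadjusted p under 0.05. Without the 3 libraries with pituitary markers 2 of the 15 did. Among 19 genes of activated microglia measured of 26, 14 lay above 0 with a median of 0.07, and 6 had unadjusted p under 0.05, all higher. Beside Lyz2 these included Clec7a (1.15), a receptor for fungal glucans, which had 0, 3.73 and 9.75 at 14 months and 5.54, 10.2 and 14.0 at 20 months, close to the filter on low values. Clec7a and Itgax, another of the 19, would not have met that filter without the samples of 20 and 26 months, where they are high, so their place among the measured genes is not independent of age. Csf1 (0.29), a growth factor of microglia, and Gpnmb were 2 others. With the choroid plexus covariate 9 of the 19 lay above 0, 3 had unadjusted p under 0.05, and the median was -0.02. Genes of homeostatic microglia had a median of -0.03, and 6 of 13 measured of 16 lay above 0. Mertk (0.29), a phagocytic receptor, was the one with unadjusted p under 0.05, while Tmem119 (0.32) and Aif1 (-0.14) lay above that threshold. Without the 3 libraries with pituitary markers Mertk stood at 0.23, and 0 of the 13 had unadjusted p under 0.05. With the covariate Aif1 stood at -0.24, and without replicate 1 of 20 months at -0.24. The summed microglia markers ranged from 337 to 499.8 at 14 months and from 336 to 471 at 20 months. T cell and B cell markers summed to at most 16.4 and 8.49 in any of the 16 libraries.

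Of 16 reactive astrocyte genes measured of 21, 15 lay above 0, 5 had unadjusted p under 0.05, all higher, and the median was 0.33. After A2m these were led by the filament gene Vim (0.37), the oncostatin M receptor Osmr (0.58) and the ferroxidase Cp (0.36). Of the 16, 1, Steap4, would not have met the filter on low values without the samples of 20 and 26 months. Osmr had 16.2, 24.8 and 31.4 at 14 months and 21.2, 38.1 and 48.2 at 20 months. Gfap, the usual marker of reactive astrocytes, was listed at 0 in every brain library and gives no value. With the choroid plexus marker sum as a covariate the differences were 0.72 for A2m, 0.27 for Vim, 0.60 for Osmr and 0.25 for Cp. Cp stood at 0.23 without the 3 libraries with pituitary markers. The 19 genes of astrocyte identity, all measured, had a median of -0.02, with 8 above 0. There Etnppl lay highest, and the deiodinase Dio2 (-0.16), the pump subunit Atp1b2 (-0.14) and the gap junction gene Gja1 (-0.13) lay below 0. Dio2 stood at -0.07 without the 3 libraries with pituitary markers.

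Interferon-stimulated genes, 24 measured of 27, had 20 above 0 and a median of 0.20, and 4 had unadjusted p under 0.05, all higher. Of the 24, 4 would not have met the filter on low values without the samples of 20 and 26 months. Ifitm3 (0.82), which blocks viral entry, had 17.7, 25.5 and 38.1 at 14 months and 31.5, 45.9 and 58.3 at 20 months, with 5 of 7 above every library of 14 months. Lgals3bp (0.54), a secreted galectin ligand, Ifit3 (0.40) and Rtp4 (0.46) followed. With the choroid plexus covariate Ifitm3 stood at 0.70 and Lgals3bp at 0.36. For class I antigen presentation 10 of 16 genes were measured, 8 lay above 0, and the median was 0.13. H2-D1 (0.36) and H2-K1 (0.34), the classical heavy chains, had unadjusted p under 0.05. With the choroid plexus covariate H2-D1 stood at 0.25 and H2-K1 at 0.26, and 0 of the 10 had unadjusted p under 0.05. Without the 3 libraries with pituitary markers 2 of the 10 did. H2-D1 had 147.8, 199 and 287 at 14 months and 215, 258 and 299 at 20 months. The non-classical H2-Q6 (0.46) and the trimming peptidase Erap1 (0.15) did not pass even without adjustment. The H2 genes are near copies of each other, so their counts are uncertain, and B2m, the light chain, was listed at 0 in every library.

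Myelinating oligodendrocyte genes had 18 of 21 measured (of 22 listed) above 0, a median of 0.15 and 5 with unadjusted p under 0.05, all higher. In order of p Apod and Hapln2 came first, followed by Mobp (0.28), a protein of compact myelin, and Aspa (0.23). The fifth was Plin4, which has the largest difference of this list, is also on the list of glucocorticoid targets below and would not have met the filter without the samples of 20 and 26 months. Mobp had 881, 1182 and 1581 at 14 months and 1349, 1431 and 1562 at 20 months, so the libraries of 20 months lay inside the upper range of those of 14 months. Aspa had 268, 285 and 317 at 14 months and 317, 336 and 383 at 20 months, and its groups met at 316.5, the highest at 14 months, and 317.3, the lowest at 20 months.

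Endothelial genes had 15 of 24 measured (of 26) above 0 and a median of 0.13, and 6 had unadjusted p under 0.05, all higher. Vwf (0.61), the platelet-binding factor of vessel walls, had 73.6, 91.3 and 112 at 14 months and 70.4, 154 and 212 at 20 months, and replicate 7 at 20 months lay below every library of 14 months. Esam (0.43), a junction protein, the adhesion receptor Icam1 (0.80) and the surface protein Ly6c1 (0.58) were next, and Ly6c1 has a near copy that its reads may share. The summed defining markers Cldn5, Pecam1 and Cdh5 had medians of 429.9 at 14 months and 447 at 20 months. Choroid plexus and ependyma genes had the highest median of any list, 0.39, with 13 of 15 measured (of 17) above 0. Ttr (0.63), the thyroxine carrier of cerebrospinal fluid, had 849.8, 1649.8 and 3258 at 14 months and 1037, 2723 and 7241 at 20 months, and replicate 4 was the highest. Enpp2 (0.34), a lysophospholipase, the chloride channel gene Clic6 (0.47) and the ependymal gene Tmem212 (0.58) had unadjusted p under 0.05, as Ttr did. Leaving out replicate 4 of 20 months lowered Ttr to 0.39 and Enpp2 to 0.21. With the choroid plexus marker sum as a covariate, of which Ttr is a part, the differences were 0.01 for Ttr, 0.10 for Clic6, 0.10 for Enpp2 and 0.53 for Tmem212. The list then had 9 of 15 above 0 and a median of 0.01. Ttr stood at 0.41 and Clic6 at 0.25 without the 3 libraries with pituitary markers. With the covariate, and also without those 3 libraries, 0 of the 15 had unadjusted p under 0.05. How much of this epithelium each brain sample held is not given in the labels.

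Of 17 pan-neuronal genes measured of 18, 2 lay above 0, and the median was -0.08. None had unadjusted p under 0.05: Tubb3 differed by -0.15, Gap43 by -0.23, Elavl4 by -0.15 and Elavl3 by -0.12. Tubb3 stood at -0.23 with the choroid plexus covariate. Neurogenesis genes, 17 measured of 20, had a median of -0.06, and 7 lay above 0. Nrep (-0.29), a protein of regenerating and developing neurons, had 1013, 1363.6 and 1451 at 14 months and 851, 1029 and 1178 at 20 months, and it alone had unadjusted p under 0.05, beside Tubb2b (-0.28), Dpysl5 (-0.12) and Dpysl3 (-0.13), tubulin and axon guidance genes of young neurons. The 21 immediate early genes, all measured, had a median of -0.11 with 6 above 0. Jun (-0.31) alone had unadjusted p under 0.05, beside Fos (-0.38), Fosb (-0.23) and Egr1 (-0.22), and 1 library, replicate 5 at 20 months, was the highest of its age for Arc, Fos and Fosb. Without replicate 6 of 14 months Jun stood at -0.20, and without replicate 5 of 20 months Egr1 stood at -0.34 and Fosb at -0.37. Without the 3 libraries with pituitary markers 0 of the 21 had unadjusted p under 0.05, and the median was -0.03. With the choroid plexus covariate 1 of the 21 did, and the median was -0.11.

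Of 17 cytosolic heat shock genes, all measured, 2 lay above 0, and 5 had unadjusted p under 0.05, all lower, with a median of -0.14. Beside Hsph1 these were led by Chordc1 (-0.35) and Stip1 (-0.21), partners of HSP90, and by the inducible chaperone Hspa1b (-0.52). Chordc1 had 1806, 2168 and 2484 at 14 months and 1324, 1825 and 2132 at 20 months. Hspa1b and its near copy Hspa1a, which differed by 0.05, share most of their sequence, so their split is uncertain. The 18 genes of endoplasmic reticulum stress, all measured, gave a median of -0.13, with 2 above 0 and 4 with unadjusted p under 0.05, all lower. Calr, a lectin chaperone that binds calcium, had 3961, 4829 and 7001 at 14 months and 3014, 3827 and 5077 at 20 months. The disulfide isomerases Pdia3 (-0.19) and Pdia6 (-0.20) and the chaperone Hsp90b1 (-0.31) made up the rest. For Hsp90b1 replicate 6 of 14 months stood at 4007 against a median of 1347, and without it the difference was -0.13.

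Glucocorticoid targets, 15 measured of 16, had 13 above 0 and a median of 0.10. The kinase Sgk1 (0.36), the hypoxia factor Hif3a (0.55) and the lipid droplet gene Plin4 (1.30) had unadjusted p under 0.05, and the sulfotransferase Sult1a1 (0.39) did not. Replicate 7 of 20 months was the highest of its group for Sgk1, Hif3a and Plin4, with 1704, 80.7 and 31.6 against medians of 852, 31.6 and 8.91. Without that library the differences were 0.22, 0.36 and 1.03, while Sult1a1 stood at 0.23 and Etnppl at 0.48. Without the 3 libraries with pituitary markers they were 0.21 for Sgk1, 0.28 for Hif3a, 0.76 for Plin4 and 0.13 for Sult1a1, and 0 of the 15 had unadjusted p under 0.05. Circadian clock genes, 15 measured of 17, had 10 above 0 and a median of 0.05. Arntl (-0.26) had unadjusted p under 0.05, and the repressors Nfil3 (-0.34), Nr1d2 (0.12) and Per2 (-0.15) did not. Without the 3 libraries with pituitary markers 0 of the 15 did. Per2 stood at -0.08 without replicate 3 of 20 months, and Nr1d2 at 0.07 without replicate 6 of 14 months. The hours of tissue collection are not given in the labels.

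Markers of thalamus and midbrain, 12 measured of 13, had the lowest median of any list, -0.23, with 2 above 0. Unadjusted p was under 0.05 for 3 of the 12, all lower. The dopamine transporter Slc6a3 (-0.87) had 31.0, 115 and 449.8 at 14 months and 22.5, 63.3 and 186 at 20 months, and the vesicular monoamine transporter Slc18a2 (-0.54) had 132, 195 and 569.9 at 14 months and 91.3, 151 and 285 at 20 months. The serotonin transporter Slc6a4 (-1.31) and the decarboxylase Ddc (-0.33) lay below 0 as well. Slc6a4 rested on few reads, 1 to 17 per library at 14 months and 0 to 15 at 20 months. Its median normalized read counts were 5.87 and 1.58. Over the 28 alternatives run for Slc6a4 the difference ran from -1.80 to -0.40, so its size is not resolved. The animals of 1 age differed widely in these transporters. Without the 3 libraries with pituitary markers the differences were -1.43 for Slc6a3, -0.80 for Slc18a2, -1.80 for Slc6a4 and -0.55 for Ddc. Without replicate 8 of 14 months Ddc stood at -0.21. Hypothalamic and pituitary hormone genes, 13 measured of 19, had a median of -0.13 and 4 above 0. Of the 13, 1, Gal, would not have met the filter on low values without the samples of 20 and 26 months. Cartpt (-0.66), a neuropeptide precursor, had unadjusted p under 0.05, and Avp (1.00), Agrp (-0.28) and Gnrh1 (-0.53) did not. Without the 3 libraries with pituitary markers Avp stood at 0.19, Cartpt at -0.77 and Agrp at -0.16. Leaving out 1 library gave 0.63 for Avp (replicate 7 of 20 months), -0.17 for Agrp (replicate 6 of 14 months) and -0.31 for Gnrh1 (replicate 1 of 20 months). How the brains were cut is not given in the labels, and its part in these values was not tested.

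**Figure D5:**
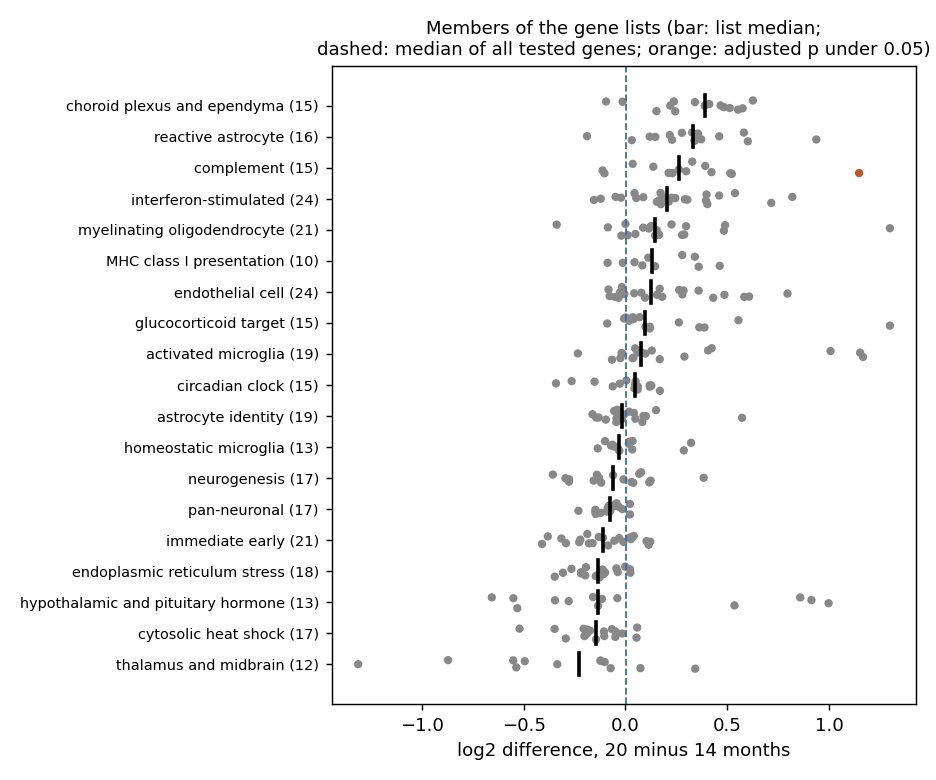
Difference between 20 and 14 months (x axis, log2) of each measured member of 19 gene lists (y axis, number measured in brackets), with list medians as bars and the median of all genes as a dashed line. List medians run from -0.23 for thalamus and midbrain to 0.39 for choroid plexus and ependyma, and C4b is the single called member.

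The steps on either side gave no calls by the same test. In limma 0 genes were called at 14 against 8 months (431 with unadjusted p under 0.05) and 0 at 26 against 20 months (604). At 20 against 14 months 647 genes had unadjusted p under 0.05. Each brain test of this paragraph covered 15566 genes. A test of whether the step from 14 to 20 months differed from the step before it called 0 genes in limma, edgeR and DESeq2, with 373, 469 and 475 at an unadjusted p under 0.05. The test against the step after it also called 0 in each, with 465, 488 and 514. In the spleens of the same animals 0 of 16243 genes were called by limma between 14 and 20 months, and 1555 had unadjusted p under 0.05.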

How the data were processed

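Brain libraries were single animals per the labels' protocols: flash-frozen tissue, TRI-Reagent RNA and a TruSeq RNA kit with 1 µg. Reads were demultiplexed with bcl2fastq 2.20 and handled with cutadapt, then HISAT2 2.1.0 and SAMtools against GRCm38, and DESeq2 ran in R 3.5.1, as named in the submitters' processing notes. Counter and annotation are not given in the sources used here. Each deposited signal value is a gene's read count over its library's size factor, as the authors made it. Dividing by the step between values gave back whole reads (tolerance 0.01).

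limma 3.58.1 (R 4.3.3) with a mean-variance trend was fitted to log2(value + 1) of 15566 genes in 43 samples at 6 ages. The 45 libraries gave 43 because 2 pairs at 5 and 8 months differed by less than sampling noise and were averaged. No pair at 14 or 20 months did. Tests were 2-sided, and genes with Benjamini-Hochberg adjusted p under 0.05 over all genes were called. As alternatives the recovered reads went into edgeR 4.0.16 (quasi-likelihood, TMM) and into DESeq2 1.42.0. The scripts were tested on simulated data. Figures were drawn with matplotlib.

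Named genes were all called genes, each direction filled to 12 by smallest p with a mean of 50 or more in the higher group, up to 4 members of smallest p per described list, and the 8 largest changes at 26 against 3 months with a mean of 50 or more. Predicted genes, pseudogenes, receptor segments and Y-linked genes were left out of the fill and of the 8, and 1 gene that the rule names is not reported here. The comparison, its genes and the 40 gene lists were chosen with earlier results of these data known, and the 19 lists described were picked after their values were seen. The alternatives tried were 2 other pseudocounts, 2 other filters, other tools and scalings, a depth covariate, 2 groups only, all 45 libraries apart, and leaving out each of the 16 libraries. A choroid plexus covariate and the removal of libraries with pituitary markers were chosen after seeing the data.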

Additional observations from a re-analysis of the deposited data

Results flagged for a closer look

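In 18 of 192 groups examined (96 named genes at 2 ages) 1 library lay further from the others than a gap test at the 95% level allows. Chance gives about 1 such group in 20, and genes of 1 library are not independent. None of these genes was called. At 14 months replicate 6 was the highest library for Hsp90b1 (4007, next 1876), Jun (858, next 589), Clmp (259.3, next 194.4) and H2-K1 (132, next 104). Replicate 1 of that age was the highest for Pdia3 (2298, next 1923). Replicate 5 was the highest for Dgkb (3659, next 3116) and Erap1 (137, next 108), and replicate 7 for Fzd4 (123, next 85.1).

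At 20 months replicate 5 was the highest library for 3 activity-induced genes, Arc (1013, next 533), Fos (1074, next 591) and Fosb (443, next 267). Replicate 7 was the highest for Hif3a (80.7, next 38.3) and Mertk (463, next 358) and the lowest for Neat1 (1678, next 1977). Replicate 2 was the highest for the monoamine transporters Slc6a3 (186, next 89.1) and Slc6a4 (15.5, next 3.15). Replicate 3 was the highest for Cartpt (103, next 41.4), and replicate 4 for Enpp2 (5975, next 3856).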

How the results depend on the processing

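C4b stayed called and higher under all 29 alternatives, with differences from 1.01 to 1.25 and adjusted p from 3.48e-05 to 0.0303. The number of genes called was 1 by limma, 2 by edgeR, 3 by DESeq2, 2 with log2 reads as a covariate and 2 without libraries under 5000000 reads, which leaves out replicate 1 of 14 months. Leaving out each of the 16 libraries gave 1 to 4 calls. Without replicate 2 of 14 months the 4 were C4b, Etnppl, Rbm3 and Neat1, and without replicate 1 of 14 months, replicate 4 of 20 months or replicate 6 of 20 months the 2 were C4b and Etnppl. Under a filter on a mean of 50, 47 of the genes higher at 26 months lay above 0. That filter leaves out members of the 89 with a lower mean, so this count is not out of 89. Of the 89, 82 to 85 lay above 0 with 1 library left out and 83 with the choroid plexus covariate. Of the 14 lower ones 8 to 13 lay below 0 with 1 library left out. Between the steps 0 genes were called with any 1 library left out.

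With 1 library left out Arc ran from -0.14 to 0.18, below 0 without replicate 4, 5 or 9 of 14 months or replicate 5 of 20 months. Medians of the lists described kept their sign under every alternative run for them, except astrocyte identity (-0.04 to 0.01), homeostatic microglia (-0.10 to 0.05), activated microglia (-0.02 with the choroid plexus covariate), neurogenesis (-0.14 to 0.0014, the highest without replicate 9 of 14 months) and hypothalamic and pituitary hormone (up to 0.35 under the filter on a mean of 50). The cause of these shifts was not tested. No paired analysis was possible because the labels give no replicate numbers and each age has different animals. Genes near the filter rest on few reads, such as Clec7a with at most 9.75 normalized reads at 14 months, and there a difference of this size is not resolved.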

Other observations

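The 21 gene lists that the report does not describe held no called gene. Genes of class II antigen presentation had a median difference of 0.16, with 6 of 7 measured above 0, and perivascular macrophage genes had a median of 0.16, with 4 of 4 above 0. Oligodendrocyte precursor and newly formed oligodendrocyte genes gave -0.01, beside 0.15 for the genes of mature myelin. GABAergic neuron genes gave -0.01, glutamatergic neuron and synapse genes -0.01, and synaptic vesicle and potassium channel genes 0.06. Cerebellar genes lay at -0.09, hippocampal genes at 0.00 and striatal genes at -0.02.

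Ribosomal protein genes had a median of -0.04, nuclear-encoded respiratory chain genes 0.03, cholesterol synthesis genes -0.02, lysosome and autophagy genes 0.02 and p53 target and senescence genes 0.03. Of the 700 genes on the 40 lists, 27 were listed at 0 in every brain library, among them Gfap, B2m, Nefl, P2ry12, P2ry13 and Cfb. Several of these are abundant in any brain, so a value of 0 is read only as listed at 0.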
